A study of Mus musculus with 6 samples.

Results

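The 29 genes described here build cholesterol, sense it, or carry, store and clear it, and they were chosen by name from that pathway. Earlier results of these data were known when the choice was made. Of the 29, 26 were paired with a probe set of that single symbol (19938 genes in the series were), and all 26 passed the filter on low signal. Acat2, Soat1 and Soat2 were paired with no probe set of that single symbol and were not analysed here. RNA was taken from tumors of the colon in 3 mice of genotype CDX2P-G19Cre;Apcflox/flox;Tgfbr2flox/flox, in which Apc and Tgfbr2 were both deleted (DKO, for the double knockout), and in 3 of genotype CDX2P-G19Cre;Apcflox/flox, in which Apc alone was deleted (Apc-KO). All 6 mice were labelled C57BL/6J and were 3 weeks old. Cre was driven by a CDX2 promoter in colon epithelium and is switched on there by chance, in some cells and not others, so loss of Apc was mosaic in the epithelium of both groups and no tumor or tissue with intact Apc was among the arrays. The tumors were cut from frozen sections by laser and each mouse gave 1 Affymetrix Mouse Gene 1.0 ST array. The comparison asks how these genes differed when the TGF-β receptor was lost in addition to Apc.

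Cholesterol is made from acetyl-CoA through mevalonate, isoprenoids, squalene and lanosterol. When sterol in the endoplasmic reticulum is scarce, SCAP escorts the SREBP transcription factors to the Golgi, where they are cut free to switch on genes of synthesis and uptake, whereas INSIG proteins hold SCAP back when sterol is plentiful. LXR receptors, bound by oxysterols, act on the other side by raising sterol efflux and lowering lipoprotein uptake.

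Promoter sequence is shown first for 5 synthesis enzymes, because letters shared by their promoters were not part of how the 29 genes were chosen. The 5 shown and the length of each stretch were picked by hand, and counts over all 13 enzymes with a promoter follow. The stretches are the bases just before the annotated start, 5′ to 3′ on the strand of the gene, from RefSeq on GRCm38.p6. Capitals mark CCAAT or its reverse complement ATTGG, the core letters of the NF-Y binding motif, and in Hmgcs1 also TCACCCCAC, a match to the sterol regulatory element letters TCACNCCAC.
Hmgcs1, chr13:119690161-119690350, plus strand: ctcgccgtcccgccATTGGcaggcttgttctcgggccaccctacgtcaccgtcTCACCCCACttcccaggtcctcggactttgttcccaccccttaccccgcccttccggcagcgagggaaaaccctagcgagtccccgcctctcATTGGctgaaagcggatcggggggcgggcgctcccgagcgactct
Mvk, chr5:114444079-114444268, plus strand: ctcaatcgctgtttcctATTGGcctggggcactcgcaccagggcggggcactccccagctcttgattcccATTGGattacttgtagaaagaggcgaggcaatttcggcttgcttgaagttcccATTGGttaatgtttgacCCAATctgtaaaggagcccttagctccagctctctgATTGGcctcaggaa
Mvd, chr8:122443423-122443522, minus strand: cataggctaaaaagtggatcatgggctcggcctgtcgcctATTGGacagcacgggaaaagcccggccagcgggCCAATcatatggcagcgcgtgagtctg
Idi1, chr13:8885506-8885605, plus strand: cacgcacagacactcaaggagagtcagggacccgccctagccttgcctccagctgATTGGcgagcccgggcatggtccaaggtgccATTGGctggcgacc
Lss, chr10:76531505-76531604, plus strand: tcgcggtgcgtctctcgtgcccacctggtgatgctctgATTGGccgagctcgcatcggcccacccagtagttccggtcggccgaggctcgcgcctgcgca

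Within these stretches Mvk held 5 CCAAT matches, Hmgcs1, Mvd and Idi1 held 2 each, and Lss held 1. A promoter in the RefSeq table was found for 22 of the 26 measured genes, 13 of them synthesis enzymes. Over the 250 bases before the start, searched on both strands, CCAAT stood in at least 1 promoter of 13 of 13 enzymes and of 6 of the 9 other genes, against 37.5% of 27025 genes in the table. TCACNCCAC was found in 1 of 13 enzymes, Hmgcs1, 137 bases before the start, and in 0 of the 9 others, against 1.2% of genes. The E-box letters CACGTG, which overlapped neither motif in these promoters, were found in 3 of 13 enzymes (Hsd17b7, Sc5d and Dhcr7) and in 2 of the 9 others (Insig1 and Scap), against 6.9% of genes. A match of letters is a description and not a bound site. Only these letters within 250 bases were searched, so the lack of a match does not show that a site is absent.

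Signals are log2 values after RMA, in which a difference of 1 is a doubling, and array medians lay between 7.68 and 7.80. Of the 6 arrays, that of DKO tumor 2 stood apart, with correlations to the other arrays of 0.956 to 0.968, against 0.980 to 0.988 among the other 5 arrays. By Xist signal alone, DKO tumors 1 and 2 and Apc-KO tumor 3 came from males, and the other 3 from females. Tgfbr2 signal was 10.98, 10.35 and 10.47 in DKO tumors, against 11.35, 11.37 and 11.09 in Apc-KO tumors, and the groups did not overlap. Where its probes lie with respect to the deleted exons was not determined, so this level does not check the genotype. As a check of the labelled tissue, the epithelial marker Epcam was at 12.65, 12.65 and 12.67 in DKO tumors and at 12.62, 12.64 and 12.33 in Apc-KO tumors. Cdx2, the transcription factor of intestinal identity, was at 11.18, 8.24 and 10.93 in DKO tumors and at 10.89, 10.73 and 10.08 in Apc-KO tumors, and was thus lowest in DKO tumor 2. Krt18, an epithelial keratin, was also lowest there, with 13.21, 12.55 and 13.18 in DKO tumors, against 13.38, 13.40 and 13.39 in Apc-KO tumors. The 10 epithelial markers all passed the filter on signal. DKO tumor 2 was highest for 7 of the 10 (28.5% of all sets) and lowest for 2 (28.3% of all sets), Cdx2 and Krt18.

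The synthesis enzymes were on the whole higher in DKO tumors, by small amounts. Of the 16 measured enzymes 15 were higher and 1, Tm7sf2, was not (93.8% higher, against 52.3% of the 19506 probe sets tested), and the median of their log2 differences, DKO minus Apc-KO, was 0.32, against 0.01 over all sets. Over all 26 genes 20 were higher (76.9%), with a median of 0.23. That median was 0.05 without DKO tumor 2 and Apc-KO tumor 3, a pair picked after the data were seen. In limma none of the 26 genes passed an adjusted p of 0.05, where the share of all sets called was 0%. The smallest adjusted p of a member was 0.821 and that of any set was 0.606, and the methods' t-test also called 0 sets after adjustment, with 998 sets at an unadjusted p under 0.05. At an unadjusted limma p under 0.05, 1 of 26 genes was higher in DKO tumors, Fdps (1.78% of all sets), and 1 was lower, Hmgcll1 (3.82% of all sets). The groups did not overlap for 6 of 26 genes that were higher in DKO tumors, Mvd, Idi1, Fdps, Fdft1, Lss and Nr1h3 (5.25% of all sets), and for 2 that were lower, Srebf1 and Hmgcll1 (6.94% of all sets).

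**Figure D1:**
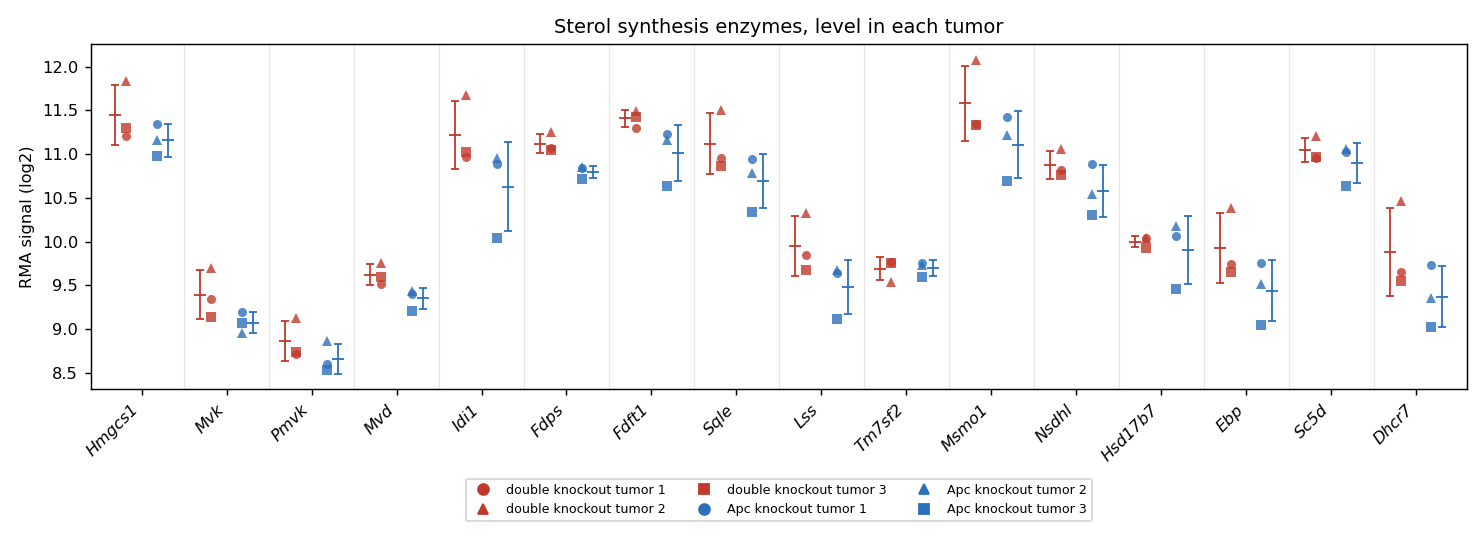
Log2 RMA signal (y axis) of the 16 synthesis enzymes (x axis, in pathway order) in each tumor, with DKO tumors in red on the left and Apc-KO tumors in blue on the right of each gene; bars are mean and SD (n = 3). In red triangles, DKO tumor 2 is highest for 14 enzymes and Apc-KO tumor 3 (blue square) is lowest for 14, and heights are not comparable between genes.

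The early steps, from acetyl-CoA to farnesyl diphosphate, were all higher in DKO tumors, 6 of 6 measured enzymes with a median log2 difference of 0.30. Fdps makes farnesyl diphosphate, the branch point to sterols and protein prenylation. Its log2 signal was 11.07, 11.25 and 11.05 in DKO tumors, against 10.84, 10.85 and 10.72 in Apc-KO tumors. The 3 DKO tumors lay close together and all were above the Apc-KO tumors. The log2 difference was 0.32 (standard error (SE) 0.11, 95% confidence interval 0.06 to 0.58, adjusted p = 0.821 from limma), or 1.25-fold, and every DKO tumor was higher (exact permutation test, two-sided, p = 0.1, the lowest p possible with 3 tumors in each group).

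Mvd, the decarboxylase that turns mevalonate diphosphate into isopentenyl diphosphate, had 9.51, 9.75 and 9.59 in DKO tumors and 9.40, 9.43 and 9.21 in Apc-KO tumors. The groups were apart by less than the spread within either group, and the log2 difference was 0.27 (SE 0.12). Idi1, which interconverts the 2 isopentenyl isomers, had 10.97, 11.68 and 11.02 in DKO tumors and 10.89, 10.96 and 10.04 in Apc-KO tumors. At Idi1, DKO tumor 2 was far above and Apc-KO tumor 3 far below the other 4, which lay between 10.89 and 11.02. Its log2 difference was 0.59 (SE 0.31, confidence interval −0.17 to 1.36), and a second Idi1 probe set gave 0.62 with overlapping groups. Hmgcs1, which condenses acetoacetyl-CoA and acetyl-CoA to HMG-CoA, and the kinases Mvk and Pmvk, which phosphorylate mevalonate in turn, overlapped between groups, with log2 differences of 0.29, 0.32 and 0.20.

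From farnesyl diphosphate to lanosterol, 3 of 3 enzymes were higher in DKO tumors, with a median log2 difference of 0.43. Fdft1, squalene synthase, had 11.30, 11.49 and 11.42 in DKO tumors, against 11.23, 11.16 and 10.64 in Apc-KO tumors. Apc-KO tumor 3 was well below the other 5. Fdft1 differed by 0.40 on the log2 scale (SE 0.18), and a second Fdft1 probe set, with 11.18, 11.44 and 11.38 in DKO tumors against 11.21, 11.26 and 10.67 in Apc-KO tumors, gave 0.29 and overlapped. Lss, which closes the sterol rings to lanosterol, had 9.85, 10.33 and 9.68 in DKO tumors and 9.64, 9.68 and 9.12 in Apc-KO tumors. To 2 decimals the groups touched at 9.68, with DKO tumor 3 marginally above Apc-KO tumor 2, and the log2 difference was 0.48 (SE 0.23). Sqle, the squalene epoxidase, overlapped and had a log2 difference of 0.43 (SE 0.23).

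From lanosterol to cholesterol, 6 of 7 enzymes were higher, with a median log2 difference of 0.31, and the groups overlapped for all 7. Dhcr7, which reduces 7-dehydrocholesterol to cholesterol, had 9.65, 10.46 and 9.55 in DKO tumors and 9.73, 9.35 and 9.02 in Apc-KO tumors. Apc-KO tumor 1 was above DKO tumors 1 and 3. The log2 difference of Dhcr7 was 0.51 (SE 0.30, confidence interval −0.21 to 1.23). Msmo1, a C4 methylsterol oxidase, had 11.35, 12.08 and 11.33 in DKO tumors, against 11.43, 11.22 and 10.69 in Apc-KO tumors. As for Dhcr7, DKO tumor 2 was the highest and Apc-KO tumor 3 the lowest. Msmo1 had a log2 difference of 0.47 (SE 0.28), and of 0.22 without DKO tumor 2 (Dhcr7 also 0.22). Ebp, the sterol isomerase, had a log2 difference of 0.49, Nsdhl and Hsd17b7, which work with Msmo1 in C4 demethylation, 0.31 and 0.10, and the desaturase Sc5d 0.14. Tm7sf2, a sterol C14 reductase, had 9.69 ± 0.13 in DKO tumors and 9.70 ± 0.09 in Apc-KO tumors (SD, n = 3 each), with a confidence interval of the difference of −0.27 to 0.27.

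**Figure D2:**
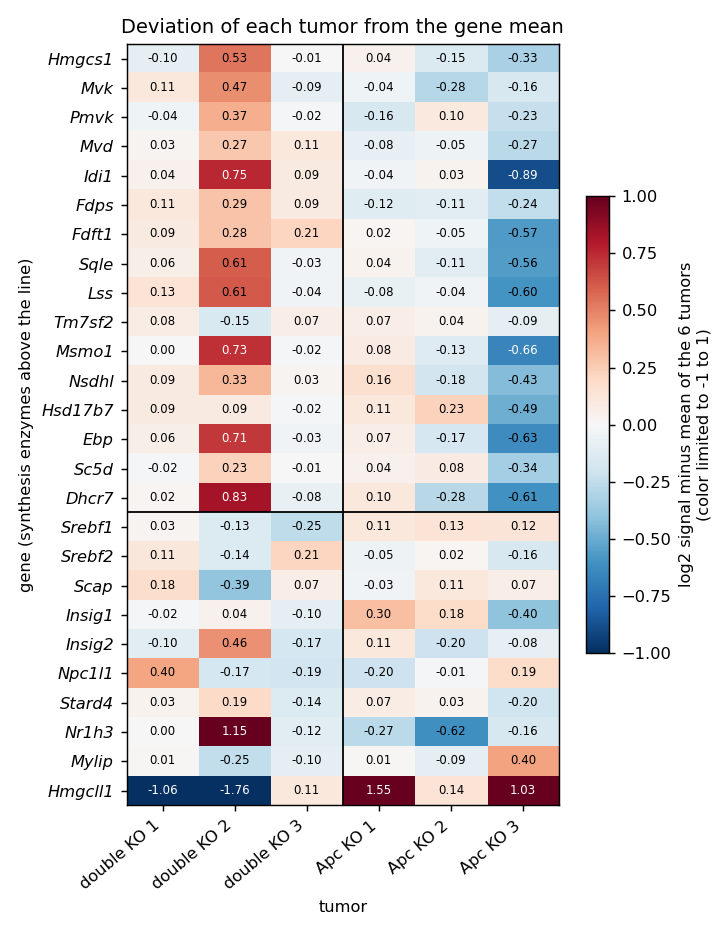
Log2 signal of each tumor (columns, DKO on the left) minus the mean of the 6 tumors, for the 26 measured genes (rows), with red above and blue below the mean. Among the synthesis enzymes, above the horizontal line, the strongest colors stand in DKO tumor 2 and Apc-KO tumor 3.

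Much of the enzyme difference lay in 2 of the 6 tumors. Averaged over the 16 enzymes, the deviation from the mean of the 6 tumors was 0.05, 0.43 and 0.02 in DKO tumors 1, 2 and 3, against 0.01, −0.07 and −0.44 in Apc-KO tumors 1, 2 and 3. For 14 of 16 enzymes (28.5% of all sets) the highest value stood in DKO tumor 2, for 14 of 16 (19.0% of all sets) the lowest stood in Apc-KO tumor 3, and both held for 13 of 16 (8.8% of all sets). Without DKO tumor 2 the median log2 difference of the enzymes was 0.22, and without Apc-KO tumor 3 it was 0.23. Without both it was 0.06, against 0.01 over all sets. Leaving out both was chosen after these values were seen. Removing the highest DKO tumor and the lowest Apc-KO tumor lowers the difference by construction. Without both tumors 13 of 16 enzymes were higher in DKO tumors, against 10256 of 19506 sets. These 13 took in Tm7sf2 (0.02), whereas Pmvk (−0.0021), Hsd17b7 (−0.14) and Sc5d (−0.07) turned below 0. Fdps, Fdft1, Mvk and Mvd had log2 differences of 0.21, 0.17, 0.17 and 0.14 without both, whereas Idi1 had 0.07, Dhcr7 0.05, Msmo1 0.01 and Hmgcs1 0.00.

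**Figure D3:**
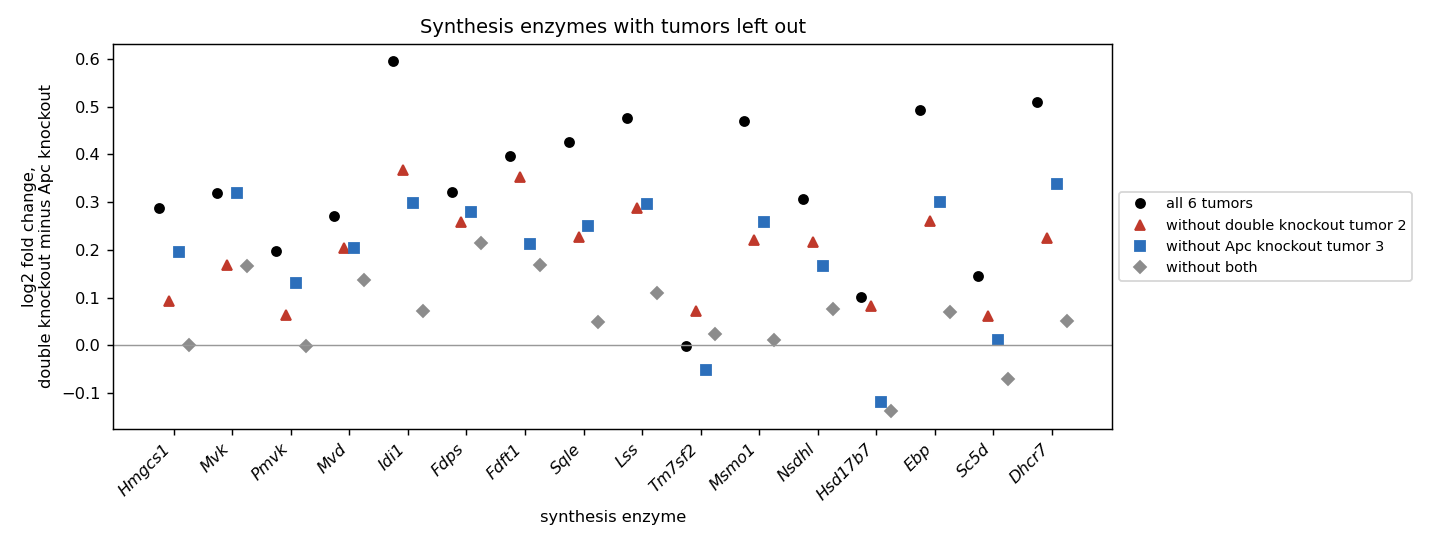
Log2 fold change, DKO minus Apc-KO (y axis), of the 16 synthesis enzymes (x axis) with all 6 tumors and after leaving out DKO tumor 2, Apc-KO tumor 3 or both. The median is 0.32 with all tumors and 0.06 without both, a pair picked after these values were seen, and Fdps keeps 0.21.

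Both of these tumors came from males. Between the 2 male DKO tumors and the 1 male Apc-KO tumor, 16 of 16 enzymes were higher in DKO tumors, with a median difference of 0.61 (46.7% of all sets higher, median −0.02). Between the 1 female DKO tumor and the 2 female Apc-KO tumors, 13 of 16 enzymes were higher, with a median difference of 0.02 (53.8% of all sets higher, median 0.02). With 1 tumor on one side each of these has no replicate check. The male set held both DKO tumor 2 and Apc-KO tumor 3, and the female set held neither. Sex therefore cannot be told apart from these 2 tumors here. Among the female tumors Fdft1 was 0.23 higher, Fdps 0.20 and Mvd 0.18, against 0.00 for Dhcr7 and for Sqle.

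Markers of some cell types moved with the same tumors, and their part in the enzyme values was not tested. Over all sets, DKO tumor 2 was highest for 28.5% and lowest for 28.3%. Apc-KO tumor 3 was lowest for 19.0% and highest for 24.1%. The mean log2 level of 10 colonocyte differentiation markers was 9.88, 11.87 and 8.64 in DKO tumors and 9.84, 8.76 and 9.53 in Apc-KO tumors, and DKO tumor 2 was highest for 9 of 10. That of 9 crypt and Wnt markers was 10.87, 8.62 and 10.98 in DKO tumors and 11.27, 11.14 and 11.11 in Apc-KO tumors, lowest in DKO tumor 2 for 8 of 9. Colonocyte signal was thus greatest, and crypt signal least, in DKO tumor 2. That tumor was also highest for 7 of 8 smooth muscle markers (mean 8.83, 10.54 and 8.10 in DKO tumors, against 8.81, 8.33 and 8.82 in Apc-KO tumors). Apc-KO tumor 3 was lowest for 6 of 10 epithelial markers (mean 12.19, 12.28 and 11.97 in DKO tumors, against 12.22, 12.02 and 11.80 in Apc-KO tumors) and for 5 of 7 proliferation markers (mean 11.23, 10.42 and 11.42 in DKO tumors, against 10.91, 11.41 and 10.25 in Apc-KO tumors). Apc-KO tumor 3 was highest for 5 of 9 crypt and Wnt, 4 of 8 fibroblast and 4 of 7 small intestinal enterocyte markers. Of 6 adipocyte markers Adipoq and Lep did not pass the filter on signal, with Adipoq between 4.57 and 4.81 in all 6 tumors. The other 4 adipocyte markers were all highest in DKO tumor 2, with a mean level of 8.29 there and between 7.43 and 7.85 in the other 5 tumors, and Fabp4 among them was at 9.81 in DKO tumor 2, with 8.06 and 8.22 in DKO tumors 1 and 3, against 8.95 and 8.65 in Apc-KO tumors 2 and 3 and 9.0 in Apc-KO tumor 1. In such bulk tissue fewer cells of a type and less RNA per cell cannot be told apart.

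**Figure D4:**
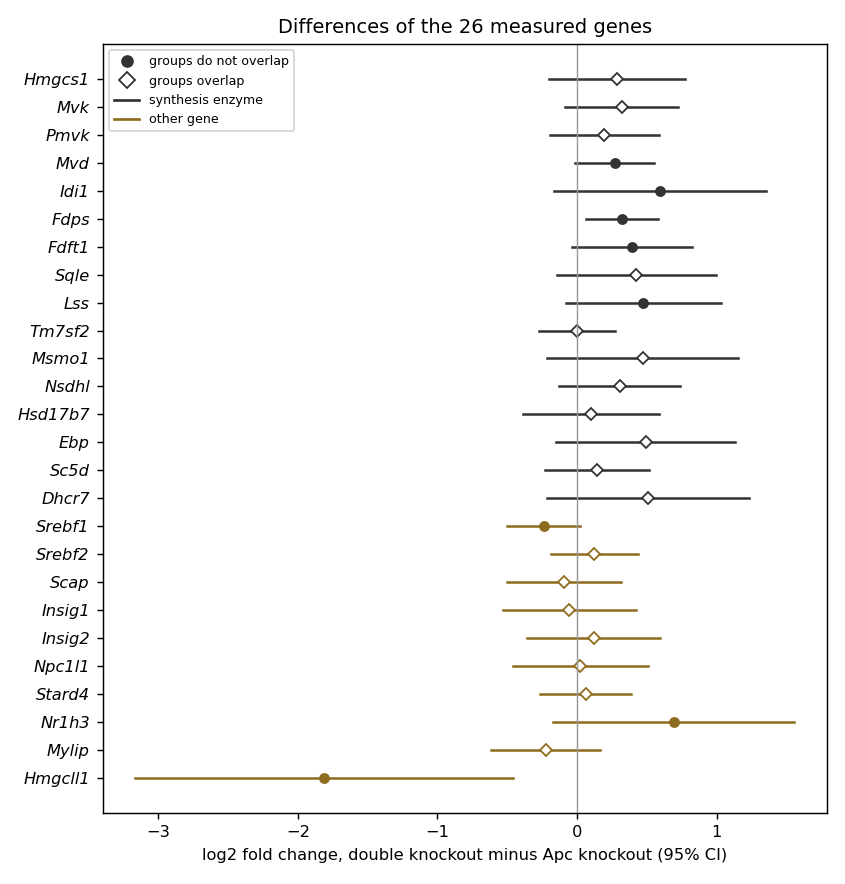
Log2 fold change, DKO minus Apc-KO, with its 95% confidence interval from limma (x axis) for the 26 measured genes (y axis); filled circles mark genes whose groups do not overlap. The intervals of Fdps (0.06 to 0.58) and Hmgcll1 (−3.16 to −0.46) leave out 0.

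The regulators of the pathway had no common direction. Of 5 sterol sensing genes 2 were higher and 3 lower in DKO tumors, with a median log2 difference of −0.05. Srebf1 encodes SREBP-1, which mainly drives fatty acid synthesis, and had 10.43, 10.27 and 10.15 in DKO tumors, against 10.51, 10.54 and 10.53 in Apc-KO tumors. The 3 Apc-KO tumors were nearly equal and all DKO tumors lay below them. Srebf1 had a log2 difference of −0.24 (SE 0.11, confidence interval −0.50 to 0.02), or 1.18-fold lower, and it was −0.23 without DKO tumor 2 and Apc-KO tumor 3.

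Srebf2 encodes SREBP-2, the main activator of sterol synthesis, and had 11.49, 11.24 and 11.59 in DKO tumors and 11.33, 11.40 and 11.22 in Apc-KO tumors. Among the 2 lowest was DKO tumor 2, the highest for most enzymes, and the groups overlapped (log2 difference 0.12, SE 0.13). Scap, the escort of SREBP, had 10.89, 10.32 and 10.78 in DKO tumors and 10.68, 10.82 and 10.78 in Apc-KO tumors. Its lowest value was again in DKO tumor 2. Insig1, itself a target of SREBP, had 10.93, 10.99 and 10.85 in DKO tumors, against 11.25, 11.13 and 10.55 in Apc-KO tumors, and Apc-KO tumor 3 was lowest, as for most enzymes. Insig2, the related retention protein, had 9.71, 10.27 and 9.64 in DKO tumors and 9.92, 9.61 and 9.73 in Apc-KO tumors, with DKO tumor 2 highest. The log2 differences of Scap, Insig1 and Insig2 were −0.09, −0.05 and 0.12, each smaller than its SE (0.17, 0.20 and 0.20).

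Of the transport genes, Npc1l1, which takes up sterol at the brush border of small intestine, had a log2 difference of 0.02 (confidence interval −0.46 to 0.51). Stard4, a soluble sterol carrier, had 0.06 (confidence interval −0.26 to 0.39). Both overlapped between groups.

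Nr1h3 encodes LXRα and had 7.83, 8.98 and 7.71 in DKO tumors, against 7.56, 7.21 and 7.67 in Apc-KO tumors. In tumor 2 of the DKO group Nr1h3 was more than 1 log2 unit above every other tumor, and DKO tumor 3 was just above Apc-KO tumor 3. Its log2 difference was 0.69 (SE 0.36, confidence interval −0.17 to 1.56) with all tumors and 0.29 without DKO tumor 2. Mylip, an LXR target whose product marks lipoprotein receptors for breakdown, had a log2 difference of −0.23 (SE 0.16), and −0.01 without DKO tumor 2 and Apc-KO tumor 3.

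The widest member was Hmgcll1, which encodes a lyase that cleaves HMG-CoA to acetoacetate and acetyl-CoA. Its log2 signal was 6.88, 6.18 and 8.05 in DKO tumors, against 9.49, 8.08 and 8.97 in Apc-KO tumors. The groups met at DKO tumor 3 and Apc-KO tumor 2, and the range over the 6 tumors was 3.31, against 1.77 for Nr1h3 and 1.64 for Idi1. For Hmgcll1 the log2 difference was −1.81 (SE 0.56, confidence interval −3.16 to −0.46, unadjusted p = 0.017 and adjusted p = 0.821 from limma), or 3.51-fold lower in DKO tumors. It was −1.38 without DKO tumor 2 and −1.32 without that tumor and Apc-KO tumor 3. It was −2.44 between the 2 male DKO tumors and the 1 male Apc-KO tumor. Between the 1 female DKO tumor and the 2 female Apc-KO tumors it was −0.74. Here too the male set held both DKO tumor 2 and Apc-KO tumor 3.

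**Figure D5:**
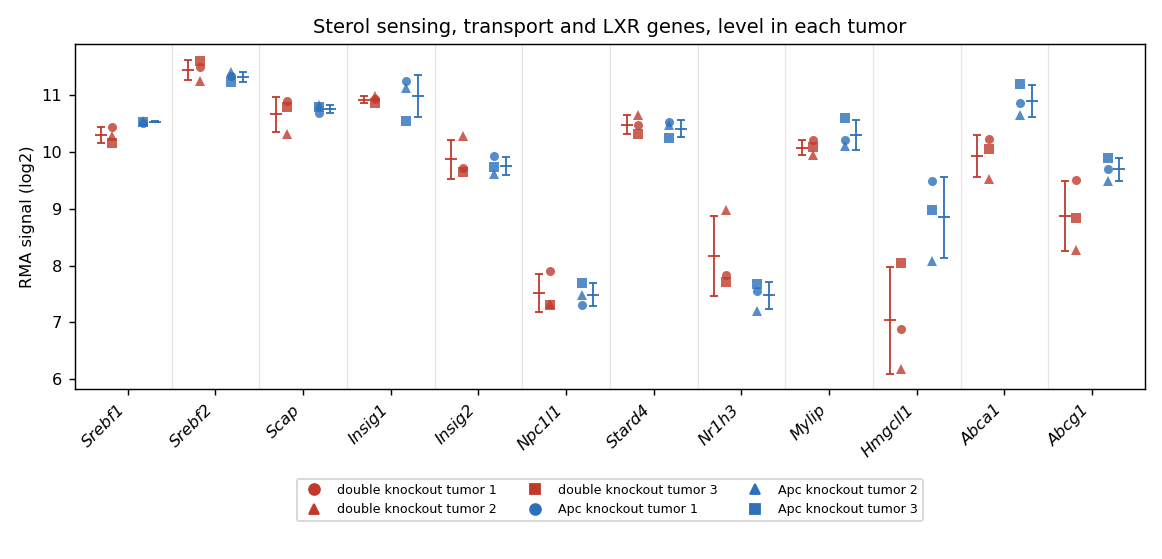
Log2 RMA signal (y axis) of the 10 measured regulator, transport, LXR and lyase genes and of Abca1 and Abcg1 (x axis) in each tumor, DKO in red on the left and Apc-KO in blue on the right of each gene, with mean and SD (n = 3). Srebf1, Hmgcll1 and Abca1 are lower, and Nr1h3 higher, in every DKO tumor, and heights are not comparable between genes.

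Among genes next to the pathway, none passed an adjusted p of 0.05 in limma. Of 7 further genes of sterol and isoprenoid synthesis 5 were higher in DKO tumors (median log2 difference 0.12). Cyp51, which demethylates lanosterol, had 10.65, 10.83 and 10.64 in DKO tumors, against 10.51, 10.51 and 9.47 in Apc-KO tumors. As for most of the 16 enzymes above, Apc-KO tumor 3 was lowest and DKO tumor 2 highest, and the log2 difference was 0.54 (SE 0.30), or 0.20 without Apc-KO tumor 3. Pdss2, of ubiquinone side chain synthesis, overlapped, with a log2 difference of 0.44, or 0.10 without DKO tumor 2. Of 9 genes of SREBP processing 5 were higher and 4 lower (median 0.02). Those with the smallest p were Erlin1 (0.59, SE 0.40), part of an endoplasmic reticulum complex that restrains SREBP, and Paqr3 (−0.39, SE 0.27), which tethers SCAP to the Golgi. Erlin1 was at 10.06 in DKO tumor 2 and between 8.32 and 8.80 in the other 5, and without that tumor its difference was 0.13 and that of Paqr3 −0.19. Of 16 genes of fatty acid synthesis 12 were higher (median 0.14), among them the desaturases Fads2 (0.48, SE 0.23) and Scd2 (0.20, SE 0.13), and both overlapped between groups. Without DKO tumor 2 Fads2 had 0.29 and Scd2 0.10, and without Apc-KO tumor 3 the median of the list was 0.07.

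Of these neighboring genes Abca1 had the lowest unadjusted p. Abca1, the LXR target that exports cholesterol to apolipoprotein A-I, had 10.23, 9.52 and 10.05 in DKO tumors, against 10.85, 10.64 and 11.19 in Apc-KO tumors. All DKO tumors were below all Apc-KO tumors. For Abca1 the log2 difference was −0.96 (SE 0.23, unadjusted p = 0.0054 and adjusted p = 0.821 from limma), and −0.61 without DKO tumor 2 and Apc-KO tumor 3. Abcg1, which exports sterol to lipoprotein particles, had 9.50, 8.27 and 8.84 in DKO tumors, against 9.70, 9.48 and 9.90 in Apc-KO tumors, a log2 difference of −0.82 (SE 0.32) in which DKO tumor 1 overlapped, and −0.52 without DKO tumor 2. Over the 9 measured LXR and efflux genes 4 were higher and 5 lower, with a median of −0.09, and of 0.14 without Apc-KO tumor 3. Neutrophil markers were lower in DKO tumors for 8 of 8, against 9310 of 19506 sets, though Csf3r (−0.016) and Mpo (−0.005) were nearly level. Their mean level was 7.18, 8.88 and 7.75 in DKO tumors, against 9.31, 9.15 and 8.53 in Apc-KO tumors. Macrophage markers had no common direction, with 5 of 8 lower and 3 higher. Their mean level was 9.43, 9.38 and 8.61 in DKO tumors, against 9.27, 8.69 and 9.33 in Apc-KO tumors. The part of these markers in the efflux values was not tested. Of 17 uptake and trafficking genes 7 were higher and 10 lower (median −0.04, and −0.10 without DKO tumor 2). Gramd1a, which moves cholesterol from the plasma membrane to the endoplasmic reticulum, had 9.57, 8.59 and 9.71 in DKO tumors, against 10.06, 10.28 and 10.41 in Apc-KO tumors. Its groups did not overlap, and the log2 difference was −0.96 (SE 0.31), or −0.61 without DKO tumor 2. Vldlr, a lipoprotein receptor, had −0.54 (SE 0.30) and overlapped, and had −0.21 without DKO tumor 2.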

How the data were processed

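Total RNA of laser-dissected colon tumors was measured on 6 arrays, 1 per mouse, 3 in each group. The authors used RMA (GeneSpring GX), which subtracts background, matches quantiles between arrays and summarizes probes, and deposited log2 signals. The annotation build is not given in the sources used here. Groups and replicate numbers came from the labels, which give each mouse its own number.

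Of 35556 probe sets, 21789 had 1 gene symbol, 1621 several and 12146 none in the platform annotation. Sets were tested if they had a symbol and averaged no less than the 20th percentile of signal (5.88), 19506 in all. The methods' 20% cut-off does not name its measure and was not applied. The test was limma 3.58.1 (lmFit, eBayes) in R 4.3.3, taking Apc-KO from DKO, two-sided, with Benjamini-Hochberg adjustment over all sets and a threshold of 0.05; it was tested on simulated data. Each gene was read from its single-symbol set with the highest mean. Promoters were those of RefSeq, GRCm38.p6.

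Members and lists were chosen with earlier results of these data known. Values per tumor are given for members whose groups do not overlap, with an unadjusted p under 0.05, a log2 difference of at least 0.5 in size or 1 of the 5 widest ranges, and for the sterol sensing genes. From each related list the 2 genes with the smallest p are named. Alternatives were the methods' t-test, other filters, scalings and variance models, array weights, a replicate block, sex as a covariate, the mean of all sets of a gene and leaving out tumors. The number of arrays limits the precision.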

Additional observations from a re-analysis of the deposited data

How the results depend on the processing

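Under 18 other settings 16 of the 26 genes kept the direction of their log2 difference and 10 reversed under at least 1. Tm7sf2 was 0.032 after median centring, 0.016 after a further quantile normalization and 0.039 with sex as a covariate, which also gave Insig1 0.034 and Npc1l1 −0.075. Array weights did not converge and called 2744 of the 19506 sets tested at an adjusted p under 0.05 in limma. They gave Tm7sf2 0.022, Hmgcs1 −0.076, Sc5d −0.024, Scap 0.17, Insig2 −0.16 and Stard4 −0.022. They put 3 members past the adjusted threshold (Fdps, Npc1l1 and Hmgcll1), 4 higher and 2 lower at an unadjusted p under 0.05, and the median of all members at 0.045, against 0.23. No other setting called a set at the adjusted threshold. Members higher at an unadjusted p under 0.05 numbered 2 after quantile normalization (Fdps and Mvd), with sex as a covariate (Fdft1 and Fdps) and with the replicate block (Lss and Idi1, in place of Fdps). That paired fit changed no other call. Same-numbered tumors deviated from their group means with correlations of −0.20, −0.06 and 0.09. The labels give them the same number, and these correlations cannot tell whether they shared anything else. Tumors were also left out, including DKO tumor 2 and Apc-KO tumor 3 together, a choice made after seeing the data. This gave 0 to 3 members higher and 0 to 2 lower at an unadjusted p under 0.05. It gave 9 to 15 without overlap, against 8, since fewer tumors overlap less often. The shares of all sets with the same unadjusted or overlap calls were not worked out for these other settings. The member counts under them therefore cannot be set against other genes. The median ran from 0.05 to 0.30 over members and from 0.06 to 0.42 over enzymes. Single genes that reversed ran from −0.17 to 0.21 (Npc1l1), −0.051 to 0.072 (Tm7sf2), −0.21 to 0.091 (Scap), −0.089 to 0.24 (Insig2), −0.10 to 0.14 (Stard4), −0.30 to 0.081 (Insig1), −0.14 to 0.24 (Hsd17b7), −0.0021 to 0.29 (Pmvk) and −0.072 to 0.22 (Sc5d).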

Other observations

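Genes that use or make ketone bodies share acetoacetyl-CoA and HMG-CoA with the sterol pathway. Of 6 listed, 4 were measured, and 4 of these 4 were higher in DKO tumors, against 52.3% of all sets. Their median log2 difference was 0.75, and 0.21 without DKO tumor 2 and Apc-KO tumor 3 (0.01 over all sets under both). Bdh2 had 6.65, 6.73 and 6.62 in DKO tumors, against 6.34, 6.14 and 6.44 in Apc-KO tumors. Its groups did not overlap, which held for 5.25% of all sets in that direction (log2 difference 0.36, SE 0.11, adjusted p = 0.821 from limma). Oxct1, which activates acetoacetate for use, had 10.04, 11.03 and 9.68 in DKO tumors, against 9.56, 9.77 and 9.01 in Apc-KO tumors, and overlapped (log2 difference 0.80, SE 0.38, or 0.42 without DKO tumor 2). The highest value stood in DKO tumor 2 for 4 of these 4 genes and the lowest in Apc-KO tumor 3 for 3.

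Branches that lead away from the sterol pathway showed no common direction. Of 9 prenylation genes 4 were higher and 5 lower, with a median log2 difference of −0.06, and Chm, an escort protein of Rab prenylation, had −0.21 (SE 0.10) with groups that did not overlap, whereas the protease Zmpste24 had 0.28 (SE 0.17), or 0.12 without Apc-KO tumor 3. Of 10 oxysterol and bile acid genes 5 were higher and 5 lower, with a median of 0.01, of −0.10 without DKO tumor 2 and of 0.13 without Apc-KO tumor 3. Hsd3b7, of bile acid synthesis, had −0.38 (SE 0.19), and the bile acid binding protein Fabp6 0.74 (SE 0.39). Without DKO tumor 2 these were −0.19 and 0.33.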
